A study of Mus musculus with 3 samples.

Results

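The genes examined here are the 4 R-spondins (Rspo1, Rspo2, Rspo3 and Rspo4), their 3 receptors (Lgr4, Lgr5 and Lgr6) and the 2 membrane ubiquitin ligases that R-spondins act on (Znrf3 and Rnf43). They were taken by symbol, and all 9 were present among the 31054 features of the 3 deposited count matrices. They were chosen with a rise of Rspo2 in mutant ectoderm already known from these data, so that rise is described below without a test. The libraries are single-cell RNA sequencing of mouse forelimb buds at embryonic day 9.5. The control library came from Esco2fl/fl embryos, which carry a floxed allele of Esco2, the cohesin acetyltransferase that establishes sister chromatid cohesion. The 2 mutant libraries came from Esco2fl/fl;Prrx1-CreTg/0 embryos, in which Prrx1-Cre recombines the floxed allele in limb bud mesenchyme, so control and mutant share the floxed genotype and differ by the transgene. Per the labels, 3 replicates were made per genotype, each a pool of 6 limb buds from 2 male samples and 1 female sample. The libraries used here are called control 1, mutant 1 and mutant 2, and with 1 control library no spread between controls could be measured. Whether the replicates came from separate litters is not stated, and the p-values reflect only how these libraries vary.

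R-spondins are secreted proteins that bind an Lgr receptor and the extracellular part of Znrf3 or Rnf43. In the absence of R-spondin, Znrf3 and Rnf43 mark Frizzled receptors for removal from the cell surface, and when R-spondin draws these ligases away from the membrane the cell becomes more responsive to WNT ligands. Both ligases are themselves induced by WNT signalling in many tissues and so act as negative feedback. In the limb bud, Rspo2 is made in the apical ectodermal ridge, a strip of ectoderm at the distal margin that also makes Fgf8 and keeps the mesenchyme beneath it growing, and Rspo2 is needed for normal limb outgrowth.

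Cells were assigned to classes by marker genes, none of which is a member of the set. Of 12322 cells kept (4048 of control 1, 3590 of mutant 1 and 4684 of mutant 2), 4555 were limb mesenchyme, 1161 surface ectoderm, 1513 endothelium, 1520 erythroid cells, 513 myogenic progenitors, 267 flank mesoderm and 96 macrophages, although the labels call the samples mesenchymal. A further 500 cells carried limb mesenchyme and flank markers within a factor of 2 of each other and are called intermediate, 1535 cells matched no class and 644 matched several, and 13 coelomic cells were too few to use. The median depth was 23045.5 UMIs (unique molecular identifiers, the counted molecules) per cell in control 1, 36295.5 in mutant 1 and 41449.5 in mutant 2. Control 1 had the shallowest mesenchyme and the deepest ectoderm, at medians of 20121 and 38200.5 UMIs, against 32928 and 29078 in mutant 1 and 48984 and 23912 in mutant 2. A UMI of the CRE feature was found in 4.66% and 5.57% of mesenchyme cells of mutants 1 and 2, in 1 ectoderm cell of each mutant, and in 0 of 1206 mesenchyme cells of control 1, a count of 0 that limits the share of cells with a CRE UMI to 0.249% (3 counts) and not the share that carries the transgene. Esco2 stood at 31.5, 22.7 and 21.5 CPM (UMIs of the gene scaled to a fixed total of the class) in mesenchyme of control 1, mutant 1 and mutant 2, and at 33.8, 29.7 and 34.5 CPM in ectoderm. Which exons are removed was not known here, and these levels are no measure of the recombination. Between 65 and 117 barcodes were shared by any pair of libraries, and leaving out every shared barcode moved no result named below across its threshold.

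The 9 genes lie on 6 chromosomes in the GRCm38 build. Rspo2 spans chr15:43020794-43170826 on the minus strand, Rspo3 chr10:29452416-29535867 on the minus strand, Rspo1 chr4:124986430-125009099 and Rspo4 chr2:151842927-151874668, both on the plus strand. Of the receptors, Lgr4 spans chr2:109917647-110014257 on the plus strand, Lgr5 chr10:115450311-115587780 and Lgr6 chr1:134983301-135105276, both on the minus strand. Znrf3 spans chr11:5276324-5444847 on the minus strand and Rnf43 chr11:87662722-87735539 on the plus strand. Their lengths run from 22.7 kb for Rspo1 to 150.0 kb for Rspo2 and 168.5 kb for Znrf3. RefSeq promoter sequences (GRCm38.p6) matched 5 of the 9 genes, namely Rspo1, Rspo4, Lgr4, Lgr6 and Rnf43. The 250 bases before the start of Rspo4 and of Lgr4 are given 5′ to 3′ on the gene's strand, with CpG dinucleotides in capitals. Rspo4 is the ligand that has mesenchyme as its highest class, and Lgr4 is the receptor found in most classes. They set a member of few classes beside a broadly expressed one.
Rspo4, chr2:151842677-151842926, plus strand: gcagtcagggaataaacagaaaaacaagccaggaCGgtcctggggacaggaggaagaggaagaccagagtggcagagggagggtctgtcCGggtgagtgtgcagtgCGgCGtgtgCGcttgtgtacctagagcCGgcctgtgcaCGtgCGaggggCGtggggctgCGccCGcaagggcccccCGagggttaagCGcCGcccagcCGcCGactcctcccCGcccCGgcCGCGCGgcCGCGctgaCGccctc
Lgr4, chr2:109917397-109917646, plus strand: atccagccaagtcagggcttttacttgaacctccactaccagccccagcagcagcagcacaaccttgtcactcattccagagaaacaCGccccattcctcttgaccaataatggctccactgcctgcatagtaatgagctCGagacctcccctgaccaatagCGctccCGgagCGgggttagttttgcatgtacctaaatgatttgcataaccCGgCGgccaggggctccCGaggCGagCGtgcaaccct
The Rspo4 stretch held 24 CpG dinucleotides and 69.6% G and C, and 12% of 32851 promoters held as many CpG dinucleotides or more. The Lgr4 stretch held 10 and 55.6%, with 37.8% of promoters holding as many. The core sequence bound by TCF and LEF factors, the nuclear end of the WNT pathway, was searched for as CTTTGA and its reverse complement TCAAAG over the same 250 bases on both strands. It was found in 13.8% of all promoters and in none of the 5 matched members.

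The members divided into genes of 1 or 2 classes and genes of many. Rspo4 was highest in limb mesenchyme, Rnf43 in ectoderm and Lgr5 in myogenic progenitors, and for each of these the lowest library of the top class lay above every library of the class that came next. Rspo3 was shared by endothelium and mesoderm, Rspo2 by mesoderm and ectoderm, and Lgr4 and Znrf3 were found in every class. Macrophages are given for completeness, with 19 to 41 cells a library. The myogenic class of control 1 held 29 cells.

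**Figure D1:**
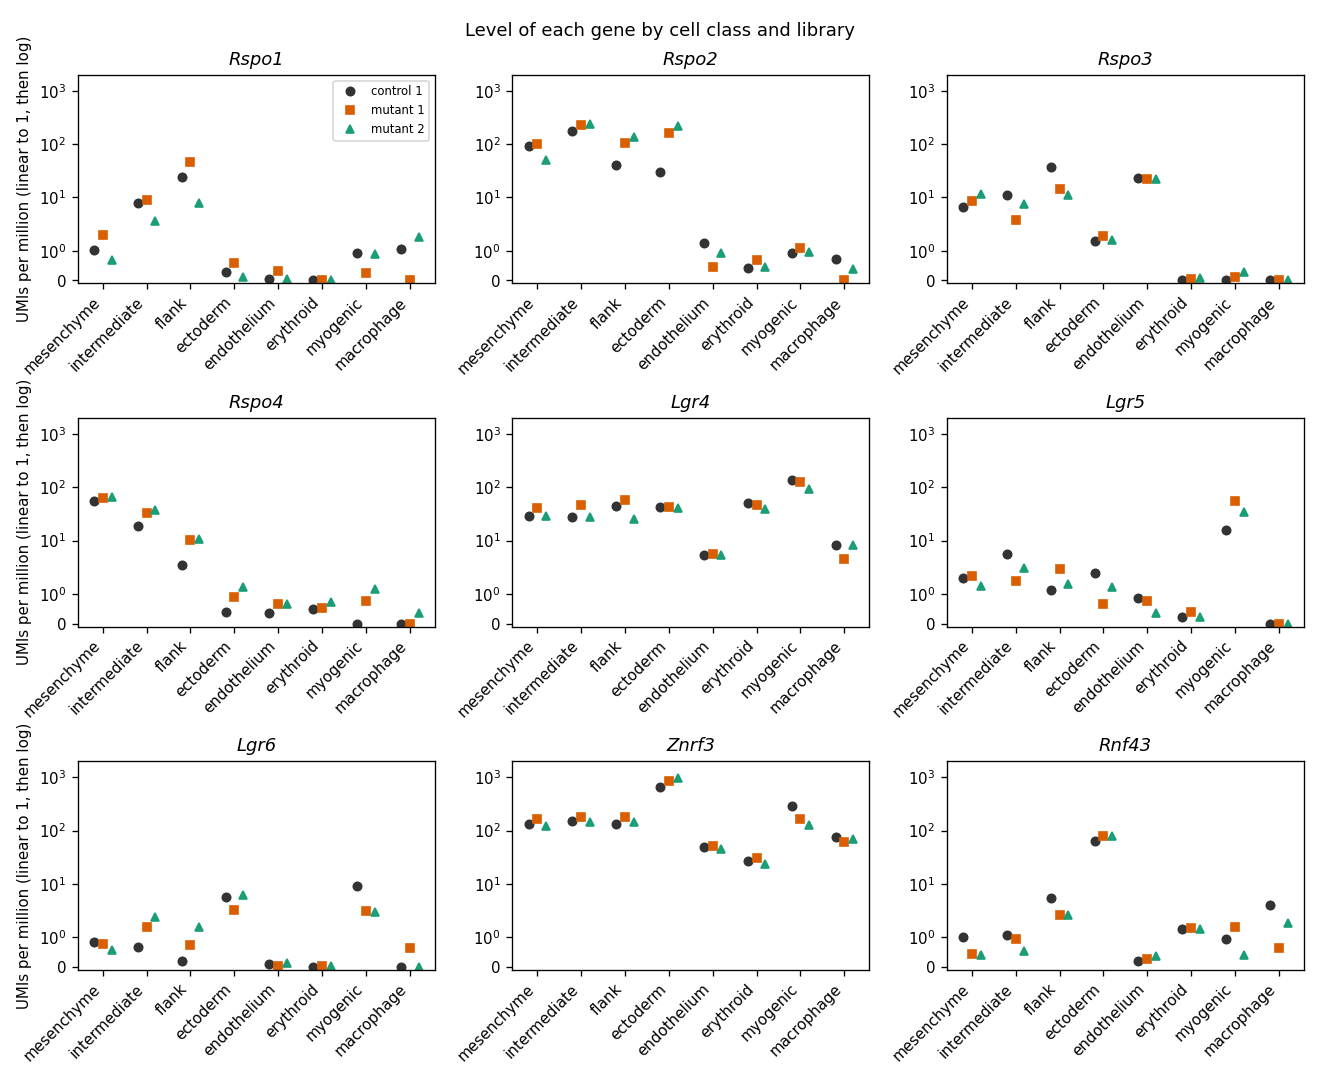
Level of each of the 9 genes (CPM of the summed class, linear up to 1 and logarithmic above) by cell class, with 1 point per library. Rspo4 is highest in mesenchyme, Rnf43 in ectoderm and Lgr5 in myogenic cells of all 3 libraries, and Rspo2 in ectoderm is at 29.98 in control 1 against 165 and 216 in the mutants.

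Rspo2 was a gene of limb and flank mesoderm and of ectoderm. Intermediate cells held 176, 227 and 235 CPM in control 1, mutant 1 and mutant 2, limb mesenchyme 92.3, 98.9 and 51.2 CPM, and flank cells 39.8, 107 and 136 CPM. Ectoderm held 29.98, 165 and 216 CPM in the same order. Intermediate cells overlapped with ectoderm alone, ectoderm, flank and mesenchyme overlapped with one another, and each of the 4 lay above myogenic, endothelial, erythroid and macrophage cells, in which no library passed 1.42 CPM. In flank cells, of which each library had 82 to 93, both mutants lay above the control; this class was not tested. Cells were also compared at equal depth, by drawing 10000 UMIs from each cell and leaving out shallower cells. An Rspo2 UMI was then found in 24.6%, 30.5% and 20.4% of mesenchyme cells and in 13.3%, 23.0% and 29.2% of ectoderm cells. Erythroid cells, which should lack it, gave 0.253%, 1.01% and 0.676%, which sets the background of free RNA at this depth. Without thinning the shares were 29.2%, 41.0% and 32.3% in mesenchyme, 17.9%, 30.2% and 33.4% in ectoderm and 3.49%, 4.25% and 2.51% in erythroid cells.

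The rise of Rspo2 in mutant ectoderm lay in the cells that express Fgf8. Ectoderm was divided at 1 Fgf8 UMI per 10000 UMIs of the cell. Fgf8-positive cells made up 28.3% of ectoderm cells in control 1 (112 of 396, exact Clopper-Pearson 95% interval 23.9% to 33.0%), 32.4% in mutant 1 (149 of 460, 28.1% to 36.9%) and 36.1% in mutant 2 (110 of 305, 30.7% to 41.7%). Because positive cells of the mutants were shallower, they held 34.9%, 34.7% and 31.5% of ectoderm UMIs. By cells both mutants lay above the control, and by UMIs below it.

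Within Fgf8-positive cells Rspo2 stood at 69.1 CPM in control 1, 443 in mutant 1 and 661 in mutant 2, which is 6.41-fold and 9.55-fold the control. Within Fgf8-negative cells it stood at 8.98, 17.5 and 10.7 CPM, 1.95-fold and 1.19-fold the control. Positive cells supplied 80.5% of the ectodermal Rspo2 UMIs in control 1 and 93.1% and 96.6% in the mutants. With each mutant's own levels weighted by the control's Fgf8-positive UMI share, ectodermal Rspo2 came to 166 and 238 CPM, 5.54-fold and 7.93-fold the control, beside 5.50-fold and 7.19-fold as measured. With the control's levels weighted by each mutant's share it came to 29.8 and 27.9 CPM, 0.995-fold and 0.932-fold the control. These values weight cells by their UMIs. With every cell weighted equally, where the Fgf8-positive share was higher in the mutants, the log2 ratio of mutants to control was 2.21 in all ectoderm and 1.97 at the control's share. Over 9 alternative ways of processing, with both mutants kept, the log2 ratio of mutants to control stayed between 2.79 and 2.97 in Fgf8-positive cells, and ran from -0.56 to 1.74 in Fgf8-negative cells, where its sign changed.

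**Figure D2:**
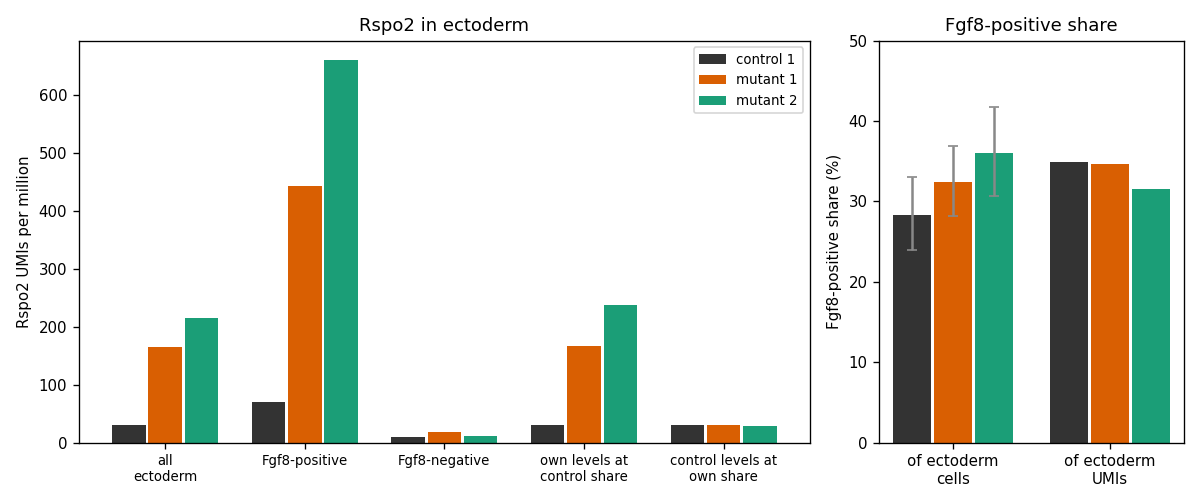
Left, Rspo2 (CPM) in all ectoderm, in Fgf8-positive and Fgf8-negative cells, and recomputed with the control's Fgf8-positive UMI share or with the control's levels. Right, Fgf8-positive share of ectoderm cells (bars with exact 95% intervals) and of ectoderm UMIs. The Fgf8-positive bars stand at 69.1, 443 and 661, while the shares lie between 28.3% and 36.1%.

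The difference between mutants and control was largest where Fgf8 was highest. In ectoderm cells with no Fgf8 UMI, Rspo2 stood at 4.23, 12.4 and 3.14 CPM in control 1, mutant 1 and mutant 2. In cells with some Fgf8 but under 1 per 10000 it stood at 22.5, 40.4 and 55.4 CPM, and in cells with 1 to under 3 it stood at 101, 168 and 209 CPM. At 3 to under 10 it was 60.9, 418 and 626 CPM, and at 10 or more 60.0, 624 and 778 CPM. In both mutants Rspo2 was highest where Fgf8 was highest. The control's value at 1 to under 3 rests on 27 cells. These groups were chosen after the data were seen. Next to the threshold, cells at 0.5 to under 1 held 55.5, 68.1 and 148 CPM (19, 19 and 9 cells), and cells at 1 to under 2 held 16.1, 203 and 199 CPM (10, 24 and 8 cells).

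**Figure D3:**
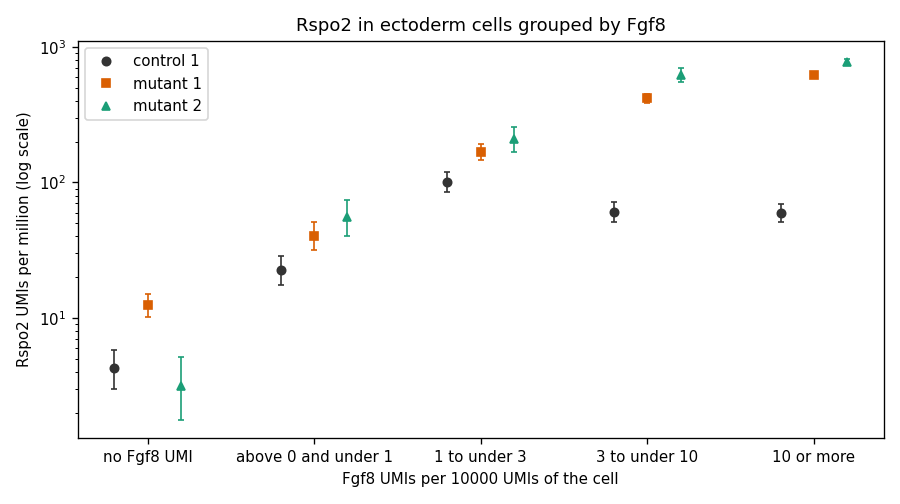
Rspo2 (CPM, log scale) in ectoderm cells grouped by their Fgf8 level, with 1 point per library and exact Poisson 95% intervals that cover counting error only. The mutants lie at 418 or more from 3 Fgf8 UMIs per 10000 upward, where control 1 lies near 60.

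More Fgf8-positive cells held Rspo2 in the mutants, and the control's molecules sat in fewer cells. At 10000 UMIs a cell, 31.7% of Fgf8-positive cells of control 1 had an Rspo2 UMI (32 of 101, exact 95% interval 22.8% to 41.7%), 56.6% of mutant 1 (73 of 129, 47.6% to 65.3%) and 75.5% of mutant 2 (71 of 94, 65.6% to 83.8%). Without thinning the shares were 37.5%, 65.8% and 77.3%. The median positive cell held 0 CPM in control 1, 211 in mutant 1 and 492 in mutant 2. The 10% of positive cells with most Rspo2 held 70.6%, 44.3% and 32.4% of its UMIs.

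Ventral and dorsal ridge cells were set apart by En1, the ventral ectoderm factor, and Wnt7a, the dorsal ectoderm ligand, a division also made after the data were seen. Fgf8-positive cells with En1 but no Wnt7a UMI held 60.0, 538 and 569 CPM of Rspo2 in control 1, mutant 1 and mutant 2 (22, 62 and 34 cells). Those with Wnt7a but no En1 UMI held 47.6, 175 and 379 CPM (46, 34 and 17 cells). Both mutants lay above the control on either side, and in each library the En1 cells held more. The balance of these cells also differed, with Wnt7a cells outnumbering En1 cells in the control and the reverse in both mutants. Positive cells with both UMIs or with neither were left out, and detection of a UMI depends on depth. Median depth was 70466.5, 39795.5 and 27612.5 UMIs in the En1 cells and 49663, 31190.5 and 24312 in the Wnt7a cells. The part of depth in this balance was not tested.

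Several other measures moved with Rspo2 in Fgf8-positive cells, and their part in the rise was not tested. Malat1, a nuclear RNA, stood at 5595, 9076 and 9332 CPM in control 1, mutant 1 and mutant 2, and the median depth fell in the same order, at 47297.5, 28765 and 19753.5 UMIs. The median mitochondrial share was 3.47%, 2.91% and 4.10%. In cells under the median Malat1 level Rspo2 was 34.1, 266 and 358 CPM, and in cells at or above it 175, 580 and 903 CPM. In cells at or above the median depth Rspo2 was 63.8, 397 and 337 CPM, and in the shallower cells 137, 599 and 968 CPM. Both mutants thus lay above the control in each of these subsets, and Rspo2 was higher in cells rich in Malat1 and in shallow cells in all 3 libraries. Prrx1, the gene whose regulatory sequence drives Cre and a marker of mesenchyme, stood at 3.32, 5.97 and 11.7 CPM in Fgf8-positive cells. Of 9 mesenchyme markers summed, these cells held 315, 268 and 309 CPM, against 1594, 1860 and 1654 CPM in mesenchyme. The number of these markers at 5 CPM or more in Fgf8-positive cells was 2 in control 1, 3 in mutant 1 and 4 in mutant 2.

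Few other genes moved as far in Fgf8-positive cells. Of 10533 genes, 13 (0.123%) were at least 4-fold higher in both mutants than in the control, with 1 CPM added to each value, and Rspo2 ranked 3 by the smaller of its differences, a log2 fold of 2.66. Zeb2, a zinc-finger repressor, and Prr16 ranked above it, and Syt2, Lsamp, Pdgfra, Cntn5, Dlg2, Abca1, Cdh8, Lrrc4c, Tox and Eif3j2 below. These genes are long. Their median span was 302 kb, against 27.2 kb for all genes measured, and 11 of 13 spanned 100 kb or more, against 16% of all. The part of gene length in these differences was not tested. In all ectoderm 2 of 10686 genes (0.0187%) passed the same fold, Prr16 and Rspo2. In Fgf8-negative cells 2 of 10691 genes (0.0187%) did, and Rspo2 was not among them. Rspo2 was chosen for its rise in mutant ectoderm, so its place among these genes is no support for that rise.

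The other R-spondins kept to mesoderm and endothelium. Rspo1, the ligand known from gonad development, was highest in flank cells, at 23.8, 47.1 and 7.97 CPM in control 1, mutant 1 and mutant 2, then in intermediate cells at 7.77, 8.84 and 3.65 CPM. Its flank and intermediate ranges overlapped, and mesenchyme lay below both at 0.677 to 2.00 CPM. No Rspo1 UMI was found in erythroid cells, which allows up to 0.0752, 0.0727 and 0.111 CPM.

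Rspo3, a ligand known for its part in vessel growth, was near constant in endothelium, at 23.2, 22.0 and 22.3 CPM. Flank cells held 37.2, 14.2 and 11 CPM, mesenchyme 6.48, 8.74 and 11.6 CPM and ectoderm 1.54 to 1.87 CPM. In flank the control lay above both mutants, in mesenchyme below both. At 10000 UMIs a cell, 16.6%, 14.1% and 15.9% of endothelial cells and 4.82%, 6.96% and 10.5% of mesenchyme cells held an Rspo3 UMI, against none of the erythroid cells. Before thinning, 36.0%, 38.2% and 35.6% of endothelial cells and 10.4%, 17.0% and 25.02% of mesenchyme cells held one. Mesenchyme depth rose in the same order as the unthinned shares, from 20121 to 48984 UMIs.

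Rspo4, the R-spondin known from nail formation, stood at 54.3, 62.0 and 64.8 CPM in mesenchyme, 18.7, 32.4 and 38.3 CPM in intermediate cells, 3.54, 10.5 and 10.6 CPM in flank and at most 1.35 CPM in any library of ectoderm, endothelium, erythroid or myogenic cells. The first 3 classes did not overlap in their ranges. At 10000 UMIs, 32.5%, 43.1% and 43.6% of mesenchyme cells held an Rspo4 UMI, beside 0.505%, 0.335% and 0.450% of erythroid cells.

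Within mesenchyme the levels of the ligands differed between groups of cells, with each ligand found in both. Cells were divided, after the data were seen, by whether Lhx2 and Lhx9, LIM factors of the distal mesenchyme beneath the ridge, reached 1 UMI per 10000 together. Rspo2 was 159, 220 and 160 CPM in cells low in both and 61.4, 59.1 and 30.5 CPM in cells with them. Rspo3 went the other way, with 2.43, 2.92 and 3.21 CPM in low cells and 8.35, 10.7 and 13.2 CPM in cells with them. Rspo4 was 41.0, 44.0 and 50.7 CPM in low cells and 60.4, 67.9 and 67.5 CPM in cells with them, and Lgr4 was 20.3, 32.5 and 18.1 against 33.9, 44.2 and 30.7 CPM. For Rspo2, Rspo3 and Rspo4 the values of the 3 libraries did not overlap between the cell groups, and for Lgr4 they did. The share of all genes that separate in this way is not given here, so the separation is a description only. The cells low in Lhx2 and Lhx9 were shallower in every library, with median depths of 11616, 21765 and 42917 UMIs against 25003.5, 36313 and 50383 UMIs, and their part in these differences was not tested.

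**Figure D4:**
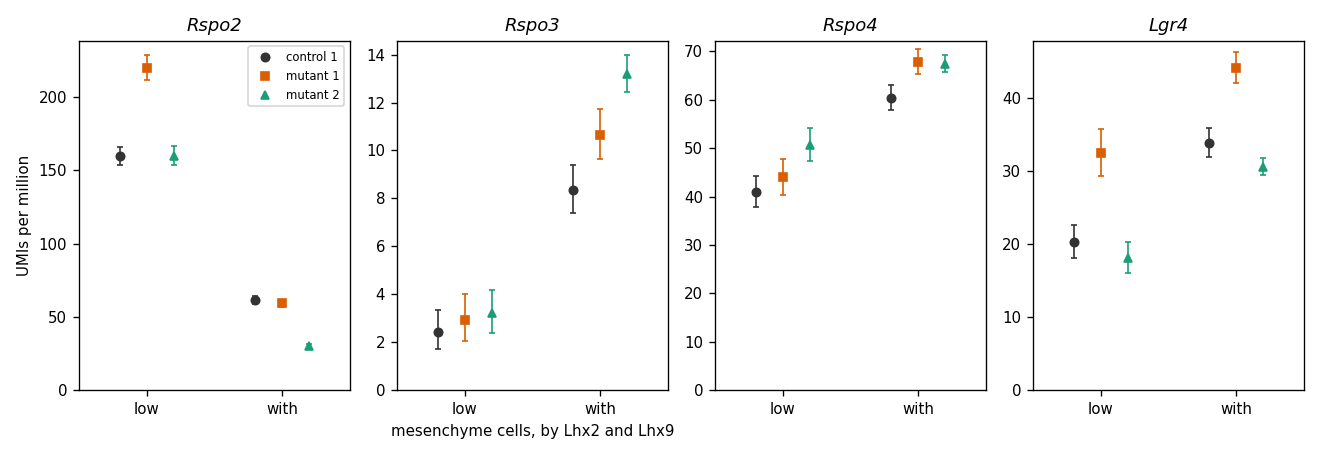
Rspo2, Rspo3, Rspo4 and Lgr4 (CPM) in mesenchyme cells low in Lhx2 and Lhx9 and in mesenchyme cells with either, 1 point per library with exact Poisson 95% intervals that cover counting error only. Rspo2 lies at 159 to 220 in low cells and at 30.5 to 61.4 in cells with Lhx2 or Lhx9, and Rspo3 and Rspo4 lie the other way round.

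Of the receptors, Lgr4 was the one found throughout. It stood at 138, 126 and 92.7 CPM in myogenic progenitors, the migrating cells that will form limb muscle, at 50.3, 46.3 and 38.5 CPM in erythroid cells, at 40.3 to 42.7 CPM in ectoderm and at 28.7 to 41.3 CPM in mesenchyme. Endothelium held 5.40, 5.51 and 5.29 CPM. Myogenic cells lay above erythroid cells in every library, erythroid, flank, ectoderm, intermediate and mesenchyme cells overlapped with their neighbours, and endothelium lay below mesenchyme. At 10000 UMIs, 36.9%, 34.5% and 31.8% of erythroid cells held an Lgr4 UMI, against 5.39%, 6.27% and 5.39% of endothelial cells, and these shares did not overlap in their exact 95% intervals (at least 27.4% against at most 9.18%). Those intervals cover counting error within a library only and are no test between the classes.

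Lgr5, the receptor known as a stem cell marker of gut and hair follicle, was a myogenic gene here, at 15.8, 54.5 and 35.2 CPM in myogenic progenitors and at most 5.54 CPM in any library of the other classes. An Lgr5 UMI was found in 2 of 25 myogenic cells of control 1 at 10000 UMIs, and in 23.3% and 18.2% of those of mutants 1 and 2. Lgr6 was low throughout. It reached 5.73, 3.30 and 6.12 CPM in ectoderm and 9.27, 3.06 and 2.91 CPM in myogenic cells, where the first value rests on 10 UMIs, and did not pass 2.34 CPM elsewhere.

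Both ligases were highest in ectoderm and differed in breadth. Znrf3 was found in every class and was highest in ectoderm, at 649, 858 and 956 CPM in control 1, mutant 1 and mutant 2, above myogenic cells (128 to 285 CPM), intermediate, flank and mesenchyme cells (121 to 181 CPM, overlapping), macrophages (60.8 to 76.6 CPM), endothelium (44.9 to 51.9 CPM) and erythroid cells (23.1 to 30.2 CPM). Rnf43 was nearly confined to ectoderm, at 63.7, 77.5 and 79.9 CPM, with at most 5.51 CPM in any library of the other classes. An Rnf43 UMI was found in 41.6%, 47.4% and 49.4% of ectoderm cells at 10000 UMIs and in 0.261%, 0.527% and 0.214% of mesenchyme cells. The edgeR quasi-likelihood fit on summed classes, with a term for the library, compared ectoderm with mesenchyme. Of 10598 genes, 60.4% were called at an adjusted p under 0.05 (29.9% higher and 30.5% lower in ectoderm), and of the 5 members with a mean of at least 5 CPM, Rspo2 left aside, 4 were called. Znrf3 was higher in ectoderm by a log2 fold of 2.41 (SE 0.15, adjusted p = 1.45e-07) and Rnf43 by 6.82 (SE 0.27, adjusted p = 3.42e-09). Rspo3 fell by 2.47 on the log2 scale (adjusted p = 3.37e-06) and Rspo4 fell by 6.38 (adjusted p = 7.95e-10). Rnf43 did not pass 1.03 CPM in mesenchyme, and in ectoderm Rspo3 did not pass 1.87 CPM nor Rspo4 1.35 CPM. Each reached the limit of 5 CPM through its high class alone, so its call adds nothing to the levels. Lgr4 was not called (log2 fold 0.22, adjusted p = 0.118). Rspo2, chosen for its level in mutant ectoderm, is given without a test, at a log2 fold of 0.33, which was 1.27 without the control and -0.50 without mutant 2. Lgr4 was called without mutant 1 (0.35, adjusted p = 0.0348) and with stricter cell limits (0.31, adjusted p = 0.0208).

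Endothelium differed from mesenchyme in 65% of 10220 genes (34.1% higher and 30.8% lower in endothelium), and all 5 members tested were called. Rspo3 was higher in endothelium by a log2 fold of 1.504 (SE 0.16, edgeR adjusted p = 2.55e-05). Rspo2 fell by 6.24, Rspo4 by 6.68, Lgr4 fell by 2.46 and Znrf3 fell by 1.38 on the same scale, with adjusted p values from 5.37e-10 to 4.24e-07. In endothelium Rspo2 did not pass 1.42 CPM and Rspo4 did not pass 0.663 CPM. Both reached the limit for testing through mesenchyme alone, so their calls add nothing to the levels.

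Ridge ectoderm held more of the receptors and ligases than the rest of the ectoderm. All 8 ridge markers examined were higher in Fgf8-positive than in Fgf8-negative cells in every library (among them Sp8, Dlx5, Bmp4 and Cd44), and of 6 genes of ectoderm outside the ridge 3 were lower in every library (En1, Wnt3 and Krt15) and 1, Krt5, was higher. Lgr4 was 59.0, 50.2 and 56.3 CPM in positive cells and 33.9, 38.8 and 32.9 CPM in negative cells. Lgr6 was 9.63, 4.85 and 12.4 against 3.64, 2.47 and 3.22 CPM. The 3 libraries of one side did not overlap those of the other for either gene. Znrf3 was 1013, 1407 and 1879 against 454, 567 and 531 CPM. Rnf43 was 96.0, 110.4 and 142 against 46.4, 60.0 and 51.5 CPM, again without overlap. The share of all genes that separate without overlap is not given here. Median depth was 47297.5, 28765 and 19753.5 UMIs in positive cells and 30923.5, 29105 and 24910 in negative cells, and Malat1 was 5595, 9076 and 9332 against 5548, 7811 and 7046 CPM. Their part in these differences was not tested.

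In the edgeR fit of this division, 12.2% of 10651 genes were called, 5.82% higher and 6.35% lower in Fgf8-positive cells. Lgr4 was higher by a log2 fold of 0.67 (SE 0.11, adjusted p = 0.00388), Lgr6 by 1.45 (SE 0.27, adjusted p = 0.00643), Znrf3 by 1.45 (SE 0.12, adjusted p = 6.24e-05) and Rnf43 by 1.14 (SE 0.12, adjusted p = 0.000194), each in 3 of 3 libraries. Rspo2, whose division by Fgf8 chose the gene, is given without a test, at a log2 fold of 4.56. Without a term for the library Lgr6 was no longer called (adjusted p = 0.0805). Lgr6 was under 5 CPM in Fgf8-negative cells of every library and reached the limit for testing through the positive cells. Its call thus adds nothing to the levels. Lgr5, Rspo1, Rspo3 and Rspo4 were under 5 CPM in ectoderm and were not tested.

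**Figure D5:**
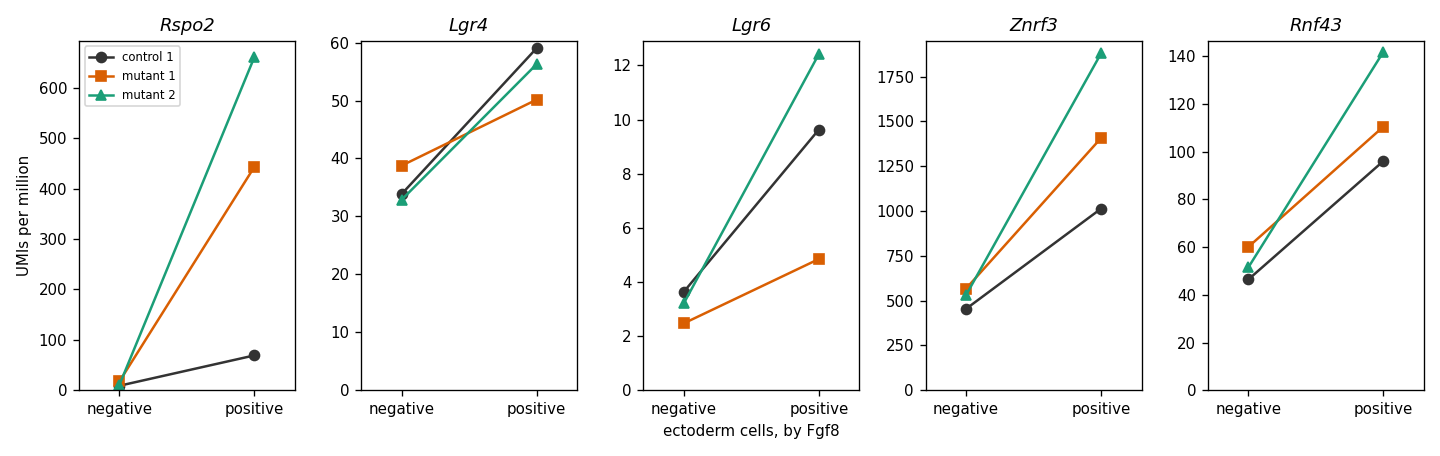
Rspo2, Lgr4, Lgr6, Znrf3 and Rnf43 (CPM) in Fgf8-negative and Fgf8-positive ectoderm, with a line for each library. Every line rises, and for Rspo2 the control ends at 69.1 where the mutants end at 443 and 661.

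Of the 4 other members with a mean of at least 5 CPM in ectoderm, none differed by 2-fold from the control in both mutants. The log2 fold of Znrf3, with 1 CPM added, was 0.40 in mutant 1 and 0.56 in mutant 2. Rnf43 gave 0.28 and 0.32, Lgr4 0.0020 and -0.08, and Lgr6 -0.65 and 0.08. In Fgf8-positive cells the values were 0.47 and 0.89 for Znrf3 and 0.20 and 0.56 for Rnf43, -0.23 and -0.07 for Lgr4, and -0.86 and 0.34 for Lgr6. Against the 13 genes past 4-fold there, Znrf3 ranked 996 and Rnf43 2575 among 10533 genes. Znrf3, like Rspo2, is a long gene, and its level too was higher in Malat1-rich positive cells of control 1 (1547 against 836 CPM), mutant 1 (1543 against 1230 CPM) and mutant 2 (2197 against 1481 CPM). Whether gene length or Malat1 has a part in the values of Znrf3 was not tested.

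In mesenchyme, the class in which Cre acts, edgeR called 160 of 10049 genes (1.59%; 0.995% higher and 0.597% lower) and 0 of the 5 members tested. Rspo2 gave a log2 fold of -0.39 (SE 0.30, adjusted p = 1), Rspo3 0.58 (SE 0.29, adjusted p = 0.810), Rspo4 0.14, Lgr4 0.15 and Znrf3 0.05. The Rspo2 value moved with the mutant library, to -0.89 without mutant 1 and -0.019 without mutant 2. Rspo3 and Rspo4 were each higher in both mutants than in the control, and neither was called. This fit gave all genes 1 common spread, and with the prior degrees of freedom of the ectoderm fit (4.03) it called 0 genes in mesenchyme.

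In endothelium edgeR called 0 of 9751 genes (666 at an unadjusted p under 0.05, and 49 by DESeq2). Of the 3 members tested, Rspo3 gave a log2 fold of -0.10 (SE 0.13; 0.00044 without shared barcodes), Lgr4 -0.04 (SE 0.19) and Znrf3 -0.04 (SE 0.16). In ectoderm it called 0 of 10686 genes, while 1361 had an unadjusted p under 0.05 and DESeq2 called 36.

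Beyond the members, genes of the WNT pathway were counted in 6 lists. Of 11 WNT feedback targets measured in ectoderm, 9 were called higher in Fgf8-positive cells and 1 lower, where 5.82% and 6.35% of all genes were, and the median log2 fold was 1.60, against -0.012 over all genes. Sp5, a transcription factor induced by WNT, was 21.9, 8.95 and 7.38 CPM in positive cells of control 1, mutant 1 and mutant 2 and 1.61, 1.19 and 0.179 CPM in negative cells (edgeR log2 fold 3.60, adjusted p = 0.000100). Sp5 is among the 9 but reached the limit for testing through the positive cells alone, so its call adds nothing to the levels. Axin2, a scaffold of the complex that destroys beta-catenin, was 89.8, 86.1 and 121 against 40.9, 28.7 and 27.2 CPM (1.60, adjusted p = 0.000199). Apcdd1, an inhibitor of WNT at the membrane, was 29.0, 49.6 and 69.1 against 5.76, 11.2 and 8.22 CPM (2.50, adjusted p = 3.20e-05). Without the library term the calls over all genes fell from 1296 to 409. Of the other lists in the same comparison, read against the same 5.82% and 6.35%, 3 of 10 WNT ligands and secretion factors were higher and 2 lower, with Wnt5a higher (log2 fold 1.83) and Wnt7b lower (-1.50). Of 12 WNT receptors 3 were higher, among them Fzd10 (1.68), of 15 transducers 4 were higher and 1 lower, and of 9 inhibitors 4 were higher and 3 lower, with Dkk4 at 3.63 and Sfrp1 at -1.62. Of 9 heparan sulphate proteoglycans, co-receptors at the cell surface, 1 was higher and 2 were lower.

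In mutant mesenchyme 2 of 11 feedback targets were lower and none was higher by edgeR, where 0.597% of all genes were called lower, with a list median of -0.26 against 0.0012 over all genes. Neither is called with the prior degrees of freedom of the ectoderm fit, which left 0 calls in mesenchyme. Cdx1, a homeobox gene induced by WNT, was 17.7 CPM in control 1, 10.4 in mutant 1 and 8.08 in mutant 2 (log2 fold -1.02, adjusted p = 0.00615). Nkd1, an inhibitor induced by WNT, was 89.9, 58.4 and 35.4 CPM (-1.03, adjusted p = 0.0207). Dkk1, a secreted inhibitor and feedback target, was 35.7, 24.5 and 19.8 CPM and was not called (-0.77, adjusted p = 0.0751). None of the ligands (4 tested), receptors (10), transducers (15), inhibitors (9) or proteoglycans (9) was called there. In receptors all 10 values were above 0, with a median of 0.22.

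In mutant ectoderm no gene of the 6 lists was called. Of 11 feedback targets 2 had values above 0 and the median was -0.31. Cdx1 was 21.2, 8.08 and 4.77 CPM in control 1, mutant 1 and mutant 2, and Sp5 8.71, 3.88 and 2.45 CPM, each lower in both mutants (log2 folds -1.78 and -1.51, edgeR adjusted p = 0.339 for both). In Fgf8-positive cells, where Rspo2 was high in the mutants, the feedback target Cdx1 was 37.3, 13.8 and 9.70 CPM. Sp5, whose levels in these cells are given above, was also lower in both mutants. Apcdd1 was higher in both, at 29.0, 49.6 and 69.1 CPM. Axin2, at 89.8, 86.1 and 121 CPM, was lower in mutant 1 and higher in mutant 2. These feedback targets thus went in different directions there. Dkk4, a secreted WNT inhibitor that is not in the feedback list, was 22.4, 1.49 and 5.43 CPM. In mutant endothelium no gene of the lists was called.

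Between classes most pathway genes were called, as most genes were. In ectoderm against mesenchyme 8 of 10 WNT ligands and secretion factors were higher and 2 lower, Wnt7a by a log2 fold of 7.76 and Wnt3 by 6.67, while Wnt6, at 8.53, is a marker used to gate ectoderm and is no finding. Of receptors 7 of 12 were higher and 2 lower, of transducers 7 of 15 and 2, of feedback targets 2 of 11 and 5, of inhibitors 4 of 10 and 6, and of proteoglycans 3 of 9 and 6. In endothelium against mesenchyme 9 of 10 feedback targets were lower and 1 higher, with a median of -2.94, and all 4 ligands and secretion factors and all 7 inhibitors were lower. Of receptors 2 of 11 were higher and 7 lower, of transducers 1 of 15 and 9, and of proteoglycans 0 of 8 and 7.

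Genes with the pattern most like a member were sought among 12993 genes over 20 sums of a class and a library, by Pearson correlation of log2 CPM, as a description only, since the sums share libraries and depth. Slc16a12 came closest to Rspo2 (r = 0.96), followed by Slc6a17, Nebl, Il1rap and Ppp2r2b (0.948 to 0.957). Tgfbr3 came closest to Rspo3 (0.947), and the Hox gene Hoxd9 (0.964) and Prrx1 (0.957) were among the 5 closest to Rspo4. Ctnnal1 came closest to Znrf3 (0.983).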

How the data were processed

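The 9 genes and the pathway lists were chosen with earlier results of these data known. Per the labels' protocols, cells were released with trypsin, frozen, thawed, pooled and loaded for Chromium chemistry. Per the file headers and the submitters' processing notes, the authors used Cell Ranger 7.0.0 and the mm10 build, and Seurat 4.0.0 for an unstated step. The deposited values are raw counts of UMIs per gene and barcode, with 202581488 UMIs in control 1, 178159788 in mutant 1 and 225032823 in mutant 2. How intronic reads were counted is not stated there.

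Barcodes with at least 500 genes and under 10% mitochondrial UMIs were kept, and 259 doublets called by Scrublet (scanpy 1.11.5, expected rate 0.06) were removed. A cell joined a class when at least 2 of its markers were detected, at 4 or more UMIs per 10000 in sum and at least 2 times the sum of any other class. The gate levels were set after the marker levels were seen. UMIs were summed per class and library and scaled to CPM over all features. Differences were tested with edgeR 4.0.16 (quasi-likelihood, TMM) where the mean over libraries reached 5 CPM, and calls were made at a Benjamini-Hochberg adjusted p under 0.05. In class comparisons, and in the division of ectoderm by Fgf8, that mean ran over the sums of both sides. A gene could thus reach it through its high side alone, and the call of such a gene adds nothing to its levels. Mutant against control leaves 1 residual degree of freedom, so the control's spread is taken from the mutants. Class comparisons carry a term for the library, and DESeq2 1.42.0 was an alternative. The edgeR script was tested on simulated data. Shares of cells were compared after thinning each cell to 10000 UMIs, with exact Clopper-Pearson 95% intervals, and 0 counts were given an upper limit of 3 counts. Intervals and limits cover counting error only.

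Genes were named by rule: all 9 members, of each pathway list the genes that passed a comparison (at most 6, by adjusted p) or the 2 with the largest absolute log2 fold, and the 5 genes most correlated with a member. From these the text gives a selection, and genes past 4-fold in Fgf8-positive cells, Malat1, Prrx1, Lhx2, Lhx9, En1, Wnt7a and Cdkn1a were named after their values were seen. Gene spans come from GENCODE M21 and promoters from RefSeq.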

Additional observations from a re-analysis of the deposited data

Results flagged for a closer look

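Rspo3 was noted because the mutants lay on opposite sides of the control in mesenchyme and endothelium, and neither difference was called. In mesenchyme both mutants lay above the control, with a log2 ratio of the mutants' mean to the control of 0.649 in CPM. In endothelium both lay below, at -0.0636. The endothelial values span only 22.0 to 23.2 CPM, and the fitted change there came to 0.00044 when shared barcodes were left out. The difference between the classes was not tested.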

How the results depend on the processing

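The count of genes called in mutant mesenchyme, 160, became 68 with DESeq2, 375 at a mean of at least 1 CPM, 614 with no limit, 0 with the prior degrees of freedom of the ectoderm fit and 78 in cells without a Cdkn1a UMI. In ectoderm 0 became 36 with DESeq2 and 796 with no limit, and in endothelium 0 became 49 with DESeq2. For the division of ectoderm by Fgf8, 1296 became 409 without the library term. The causes were not tested.

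Of the members' log2 folds under alternatives, 267 were counted as unchanged. With a test, that meant the same direction and side of the threshold. Where a mutant library was left out and no test was run, it meant a move smaller than the SE of the main fit. A change of sign of an uncalled gene was not counted in those cases. Those that changed sign among the tested alternatives were uncalled: Znrf3 in mesenchyme (-0.0090 with no limit, -0.035 with classes from clusters) and in endothelium (0.0083 with stricter cell limits, 0.0067 with doublets kept, 0.012 without shared barcodes), Lgr4 in endothelium (0.085 with doublets kept), Rspo3 in endothelium (0.00044 without shared barcodes) and Rspo2 in ectoderm against mesenchyme (-0.017 with clusters). Leaving out 1 library put the last between -0.50 and 1.27.

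For Rspo2 in ectoderm, the log2 ratio of the mutants to the control was 2.65 in all ectoderm (2.26 with clusters, 2.21 as the mean over cells) and 2.73 at the control's Fgf8-positive share (1.97 as the mean over cells, -0.054 with the mutants' shares on the control's levels, which is the share by itself). In Fgf8-negative cells it was 0.61, and 1.74 with stricter cell limits, 1.34 at a threshold of 2 Fgf8 UMIs, -0.51 with clusters and -0.56 as the mean over cells. The share of Fgf8-positive cells with an Rspo2 UMI was 17.0%, 52.5% and 71.2% in control 1, mutant 1 and mutant 2 thinned to 5000 UMIs, and 37.5%, 65.8% and 77.3% without thinning.

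No paired analysis was possible because the control carries no replicate number in the labels.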

Other observations

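Mesenchyme cells with a UMI of Cdkn1a, the cell-cycle inhibitor induced by p53, numbered 16 in control 1, 201 in mutant 1 and 402 in mutant 2. Rspo2 stood at 76.7 and 46.3 CPM in those cells of mutants 1 and 2, beside 105.5 and 52.4 CPM in their mesenchyme cells with no Cdkn1a UMI. Rspo4 stood at 56.2 and 60.0 CPM beside 63.7 and 66.0 CPM, and Lgr4 at 28.3 and 25.97 CPM beside 45.2 and 29.4 CPM. Znrf3 stood at 140 and 108 CPM beside 175 and 125 CPM. All 4 genes were lower in the cells with a Cdkn1a UMI in both mutants, as was Rspo3 (7.46 and 10.5 beside 9.11 and 11.9 CPM). Rspo1 and Lgr5 were lower in those cells of mutant 1 and higher in those of mutant 2. In mutant 2 Rspo1 was 0.716 beside 0.667 CPM and Lgr5 1.81 beside 1.29 CPM. The share of all genes that were lower in the cells with a Cdkn1a UMI is not given here. These cells were deeper, with medians of 49885 and 51878 UMIs against 30438 and 48091, and the division was made after the data were seen and was not tested.

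Across Fgf8-positive cells, the log level of Rspo2 correlated with that of Fgf8 at r = 0.174 in control 1 (112 cells), 0.445 in mutant 1 (149 cells) and 0.373 in mutant 2 (110 cells), and with that of Malat1 at 0.241, 0.407 and 0.376. The cells of a library share its depth and preparation, so these values are descriptions.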
